A study of Leptinotarsa decemlineata with 61 samples.

Results

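The Colorado potato beetle (Leptinotarsa decemlineata) feeds on potato foliage as a larva and as an adult, and its midgut meets that diet at both stages. A set of 86 genes of the 15578 in the deposited expression table was selected on measured values as higher in the midgut of L4 larvae, the last larval instar, than in any other dissected tissue. A gene entered the set when its mean in L4 midgut was at least 20 TPM (read pairs per unit of gene length, scaled to a fixed total per library) and at least 4 times its mean in each of 11 other dissected groups, adult midgut included. These selecting values are described below without a test. Eggs and whole L1, L2 and L3 larvae played no role in the selection, and the tests were made there and between further pairs of groups that the selection did not contrast.

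The atlas holds RNA-seq of wild-type, untreated beetles of the E06 strain, fed potato leaves, in 61 libraries of 21 sample types, each labelled with its replicate number. L4 larvae were dissected on day 19 after egg laying into midgut, hindgut, white and yellow fat body and hemolymph, each library from 1 individual. Adults were dissected 7 days after emergence into midgut, hindgut, fat body and malpighian tubules of females and of males, ovaries, testes, aedeagus and genital ducts, again 1 individual per library. Each library of whole bodies pooled individuals, 3 larvae for L1, L2 and L3 and 5 for fertilized eggs. Groups held 3 libraries, except 6 for adult midgut, adult fat body and malpighian tubules (females and males together) and 5 for adult hindgut, and L4 fat body was 2 white and 1 yellow. The study set aside 2 libraries, female hindgut replicate 5 and yellow fat body replicate 4 of L4, and both were left out here unless named. Replicates were separate individuals or pools, so the spread between them includes differences between animals.

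The insect midgut is the part of the gut that secretes digestive enzymes and takes up nutrients, and it is lined by the peritrophic matrix, a sheet that separates food from the epithelium. In beetles with complete metamorphosis the larval midgut epithelium is replaced at the pupal stage by a new adult one. The gene identifiers were looked up only in a RefSeq gene table, where none was found (0 of 86, and 0 of 15578 over the whole list), and the study's own functional annotation was not used here, so the genes are given by identifier and position without a name or a role, and no sequence is shown.

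Depth, as estimated from the steps between low values, ran from 9913155 to 18579970 read pairs per library with a median of 14953364, and 1 read pair was worth at most 0.122 TPM for a gene of median length. Of the 59 replicate pairs compared within groups, 0 held identical values. L4 hindgut replicate 4 stood apart, with a median of 7.84 TPM over the 86 genes, against 0.456 and 0.702 TPM in the other L4 hindgut libraries. The 242 genes that were high in midgut at both stages (at least 20 TPM in L4 and in adult midgut, and at least 4 times each other group) had a median of 5.11 TPM in that library, against 0.0975 and 0.131 TPM. In L4 midgut replicate 5, the 54 genes high in hindgut had a median of 9.50 TPM, against 0.789 and 3.41 TPM in the other L4 midgut libraries. The part of these signals in the results below was not tested beyond leaving the libraries out. In bulk tissue, fewer cells of a type and less RNA per cell cannot be told apart.

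The label larval-only did not hold for most of the set. In adult midgut 77 of the 86 genes (89.5%) had a mean of at least 1 TPM, against 54.6% of all genes. A mean of at least 10 TPM was reached by 53, while only 9 were under 1 TPM. Per library the median over the set was 259, 276 and 291 TPM in L4 midgut, and 10.8 to 24.8 TPM in adult midgut. The set took 16.4 to 18.1% of the TPM of an L4 midgut library and 1.19 to 1.99% of that of an adult midgut library. The next highest group was adult midgut for 55 genes, L4 hindgut for 11, L4 hemolymph for 7, malpighian tubules for 5, testes for 4, adult hindgut for 3 and genital ducts for 1. They are called here the genes higher in L4 midgut.

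**Figure D1:**
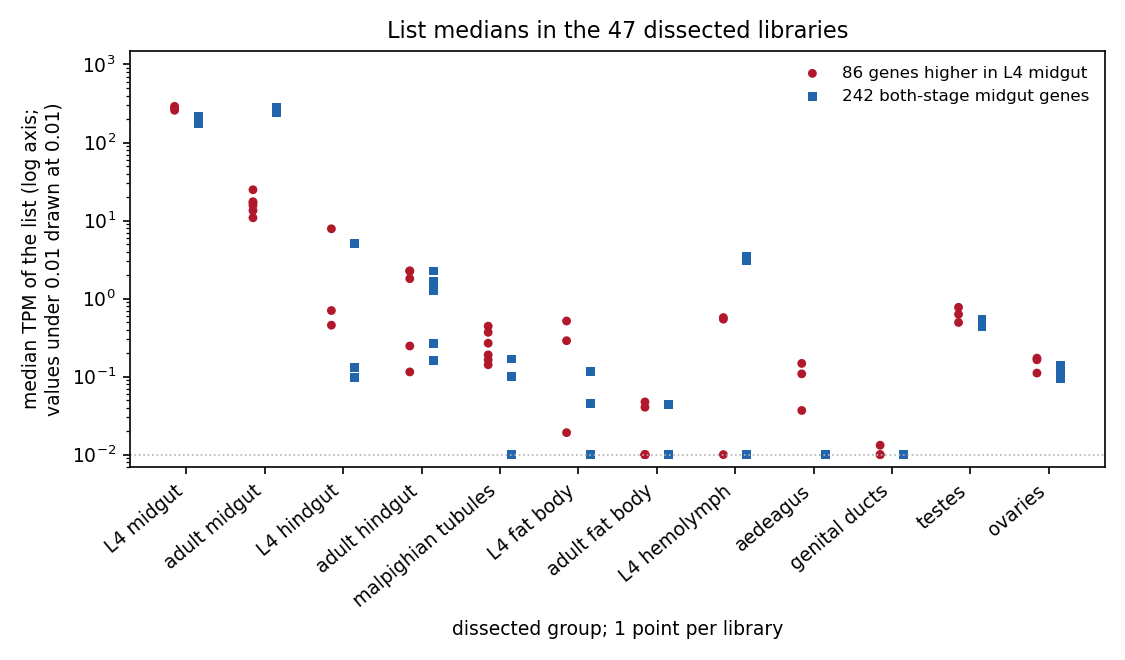
Median TPM (log axis) of the 86 genes higher in L4 midgut (circles) and of the 242 both-stage midgut genes (squares) in each of the 47 dissected libraries, 1 point per library, grouped by tissue and stage. The 86 genes lie at 259 to 291 TPM in L4 midgut and at 10.8 to 24.8 TPM in adult midgut, and 1 L4 hindgut library lies apart at 7.84 TPM.

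The ratio of L4 midgut to the next group had a median of 6.50 and ran from 4.03 to 1043, with 27 genes at 10 or more, 6 at 100 or more and 19 under 5. The genes just inside the limit of 4 were LdNA_14263 at 4.03, LdNA_14196 at 4.05 and LdNA_11263 at 4.07. Just outside it were LdNA_21650 and LdNA_14498, both at 3.98, and LdNA_25171 at 3.96. At the lower limit of 20 TPM the nearest genes inside were LdNA_13692 (21.2 TPM), LdNA_9988 (22.9 TPM) and LdNA_8239 (23.0 TPM), and those outside were LdNA_11801 (17.6 TPM), LdNA_19732 (17.5 TPM) and LdNA_28110 (14.8 TPM). Near the ratio limit the edge was dense, and the size of the set moved with scaling. With median-of-ratios scaling of the libraries 52 genes met the rule, 45 of them from the 86, and the median ratio of L4 to adult midgut over the 86 genes was 4.55 in place of 8.70.

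Levels within L4 midgut covered a wide range. The L4 midgut mean had a median of 283 TPM and ran from 21.2 to 35427 TPM, with 22 genes above 1000 TPM, 39 from 100 to 1000 TPM and 25 under 100 TPM. The 5 most abundant genes alone held 10.5 to 12.0% of the TPM of a library. Of the 12 most abundant genes, 8 were shorter than 500 bp in the annotation, against 15 of 86 over the set (17.4%) and 20.3% of all genes.

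LdNA_25084 (chromosome 13, 3827924-3833184, minus strand, 5 exons, coordinates as deposited) was the most abundant, with 31889, 44493 and 29900.1 TPM in the L4 midgut libraries. In adult midgut it lay between 0.0739 and 3.75 TPM with a median of 0.415 TPM (n = 6). No adult midgut library came near the L4 values.

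LdNA_28787 (chromosome 14, 41735518-41737311, minus strand) had 44546, 19533 and 39320.5 TPM in L4 midgut. Its adult midgut values ran from 34.6 to 2751 TPM with a median of 126 TPM. Male midgut replicate 2 gave the value of 2751 TPM, and the other adult libraries were at or under 296 TPM. LdNA_28785, next but 1 along the chromosome, had 3456, 1165 and 3609.5 TPM in L4 midgut and 1.21 to 666 TPM in adult midgut, and male midgut replicate 2 was again the highest library.

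LdNA_31770 (chromosome 17, 4140260-4149387, minus strand) had 26910.4, 16405 and 21895 TPM in L4 midgut. It was also the most abundant of the set in adult midgut, with 3713 to 7315 TPM and a median of 3905 TPM. The groups did not overlap, and the ratio of their means was 4.77. LdNA_25086 and LdNA_25087, the next most abundant in adult midgut (means of 2322 and 2315 TPM), had 7289 to 20149.7 TPM and 6994 to 19472 TPM in L4 midgut, with L4 replicate 4 the highest library for both.

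LdNA_30864 averaged 9204 ± 3275 TPM in L4 midgut (SD, n = 3) and 299 ± 65.9 TPM in adult midgut (SD, n = 6). LdNA_6513 averaged 3469 ± 269.8 TPM and 108 ± 48.7 TPM in the same groups. The closest L4 replicates among the 12 genes were those of LdNA_6513, at 3287 to 3779 TPM.

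LdNA_31197, LdNA_20307 and LdNA_14261 followed with L4 midgut means of 3387, 3221 and 2688 TPM and adult midgut means of 405, 429.9 and 181 TPM. LdNA_31197 was also broadly present elsewhere, with 99.5, 309 and 243 TPM in L4 hindgut and 193, 239 and 228 TPM in eggs. The span of LdNA_20307 overlaps that of a gene on the opposite strand. In these non-directional libraries reads from any shared exon stretch cannot be told apart, and overlap of exons was not checked.

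**Figure D2:**
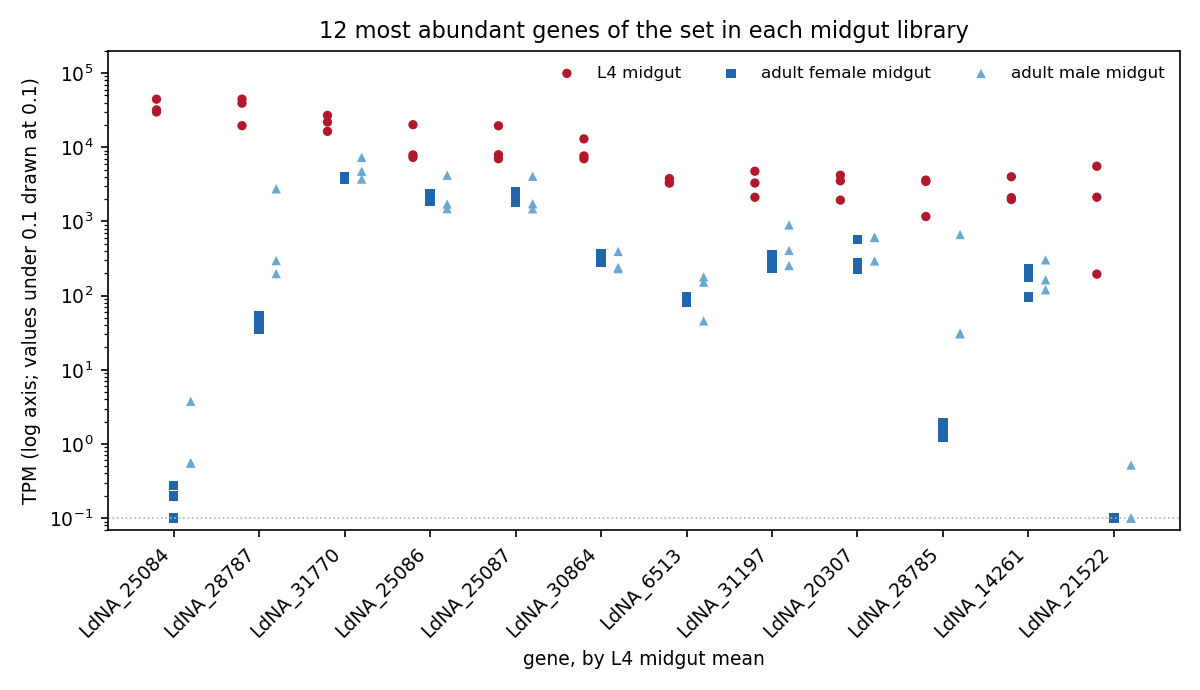
TPM (log axis) of the 12 most abundant of the 86 genes in each L4 midgut library (circles), adult female midgut library (squares) and adult male midgut library (triangles), 3 libraries each. LdNA_25084 lies at 29900.1 TPM or more in L4 midgut and at 3.75 TPM or less in adults, while LdNA_31770 keeps 3713 TPM or more in adults.

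The largest ratios to the next group plus 1 TPM were those of LdNA_21522, LdNA_25048, LdNA_25085 and LdNA_25168. LdNA_21522 (chromosome 11, 3950552-3952469) had 5545, 195 and 2121 TPM in L4 midgut. It was listed at 0 in 5 of the 6 adult midgut libraries and at 0.519 TPM in male replicate 2. Its L4 libraries differed 28.5-fold among themselves, which makes its mean the least precise of the 12 most abundant genes. LdNA_25048 had 1300.2, 627 and 2108 TPM in L4 midgut and 2.11 to 17.2 TPM in adult midgut, with a median of 2.33 TPM.

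Spread between L4 midgut libraries was often wide. The highest library was a median of 2.11 times the lowest over the 86 genes, under 2 times for 41 genes and at least 5 times for 8. Among these, named after their values were seen, LdNA_28109 had 233 TPM in L4 midgut replicate 4 and 1.39 and 0.688 TPM in replicates 3 and 5, and LdNA_33968 was listed at 0 in replicate 3, with 48.9 and 28.5 TPM in replicates 4 and 5.

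Position along the genome showed small groups of neighbours. In 6 runs, with at most 2 other genes between members, stood 15 of the 86 genes (17.4%). For comparison, 46.7% of the both-stage midgut genes and 46.8% of the 156 genes highest in adult midgut had another gene of their own list as near, in lists of larger size. Chromosome 4 held 11 of the 86 genes among its 1046 genes (1.05%) and chromosome 13 held 8 among 701 (1.14%). Chromosome 3 held 1 among 1158 (0.0864%).

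The largest run covers 22201 bp of chromosome 13 and has 4 consecutive genes, LdNA_25084, LdNA_25085, LdNA_25086 and LdNA_25087. LdNA_25084 and LdNA_25085 lie on the minus strand, and LdNA_25086 (3848146-3848950) and LdNA_25087 (3848980-3850124) on the plus strand. The 2 strands differed in the adult. LdNA_25085 had 344, 1331 and 448 TPM in L4 midgut and at most 0.113 TPM in adult midgut. Its neighbour LdNA_25084 had at most 3.75 TPM in adult midgut. The plus-strand genes had adult midgut means of 2322 and 2315 TPM. LdNA_25086 and LdNA_25087 lie 29 bases apart, and in the 20 libraries where both had 100 TPM or more their ratio stayed between 0.869 and 1.19. Whether they share reads or a transcript was not tested.

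In a run of 3 on chromosome 17 (27074 bp), LdNA_31769 differed from its neighbours LdNA_31768 and LdNA_31770. It had 72.7, 33.3 and 88.6 TPM in L4 midgut but 3037, 695 and 1514 TPM in fertilized eggs. LdNA_31770 had at most 0.955 TPM and LdNA_31768 at most 3.29 TPM in eggs. Adjacent genes of the set were thus highest at different stages.

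The first of the comparisons outside the selection asked which of the genes were higher in L1 larvae than in eggs. Of the 86 genes, 72 passed the filter of a mean of 1 TPM over the 6 libraries, and 46 of those were higher in L1 and 12 lower (limma on log2(TPM + 1), Benjamini-Hochberg adjusted p under 0.05 over 11466 genes). Over all genes tested, 19.4% were higher and 54.9% lower, and the median log2 difference was -0.62, against 1.69 over the 72. Of 237 both-stage midgut genes tested, 231 were higher and 2 lower, with a median log2 difference of 4.85. A rise from eggs to L1 was thus not particular to the set, and it was larger in the both-stage genes. The filter let 25 of the 72 genes in through only 1 of the groups, and 24 of those were called, so these counts describe the genes that passed and not the whole set. With no filter, 53 of 83 were higher and 12 lower. Rescaling by median-of-ratios factors gave 53 higher and 7 lower of 73.

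LdNA_31770 had 1666, 1947 and 1856 TPM in L1 larvae, against 0.203, 0.955 and 0.332 TPM in eggs. The log2 difference was 10.28 ± 0.20 (SE, limma adjusted p = 3.2e-08), the largest of the set. LdNA_25086, with 459, 699 and 525 TPM in L1 larvae and 0 in each egg library, and LdNA_25087 followed, and both were past the threshold. These 3 genes passed the filter through their L1 values alone, the group where they are high. All 3 are also the most abundant of the set in adult midgut.

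Eggs held some of the set at high level. LdNA_31769, with the egg values given above, had 21.6, 17.3 and 19.4 TPM in L1 larvae, a log2 difference of -6.18 ± 0.47 (SE, limma adjusted p = 2.8e-05). LdNA_9323 and LdNA_31197 were the next highest in eggs, with means of 283 and 220.2 TPM. LdNA_29996 had 8.63, 9.64 and 11.2 TPM in L1 larvae, against 51.0, 60.0 and 66.6 TPM in eggs. LdNA_10554 had 0.0950 to 0.153 TPM in L1 larvae, against 3.63 to 5.79 TPM in eggs, and its call was lost when L2 and L3 larvae shared the fit (limma adjusted p = 0.077). It passed the filter through its egg values alone.

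Across the instars the genes were low relative to L4 midgut, where only midgut RNA was sampled. Whole L1 larvae had a median of 5.95% of the L4 midgut level, L2 larvae 4.15% and L3 larvae 11.5%. The set held 0.679 to 0.758% of the TPM in L1 libraries, 0.594 to 0.875% in L2 libraries and 0.854 to 2.56% in L3 libraries. The both-stage midgut genes held 13.2 to 14.3%, 9.85 to 12.7% and 6.93 to 18.2% in the same libraries.

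The median over the 86 genes was 10.0 to 12.0 TPM in the L1 libraries and 5.94, 5.98 and 7.02 TPM in L2 larvae. In L3 larvae it was 36.1 TPM in replicate 3, 24.6 TPM in replicate 4 and 8.12 TPM in replicate 5. The L1 and L2 libraries did not overlap, while the L3 libraries covered a wide range and replicate 5 fell between L1 and L2. L2 was the lowest of the instars for 48 of the 86 genes (15.6% of all genes with at least 1 TPM in an instar), L3 was the highest for 59, L1 for 24 and L2 for 3.

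The L3 libraries ordered the 2 kinds of midgut genes in opposite ways. The genes higher in L4 midgut had medians of 36.1, 24.6 and 8.12 TPM in L3 replicates 3, 4 and 5, against 45.2, 78.7 and 88.4 TPM for the both-stage midgut genes. Of the 86 genes, 64 were highest in replicate 3 and 70 were lowest in replicate 5. Over all genes with at least 1 TPM in L3, 64.2% were highest in replicate 3 and 64.1% were lowest in replicate 5. Each is a smaller share than in the 86 genes, but each still covers most genes counted. How many genes had both was not counted. The highest L3 library was a median of 3.22 times the lowest over the 86 genes and 1.89 times over all genes. In L1 the same figures were 1.39 and 1.24.

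**Figure D3:**
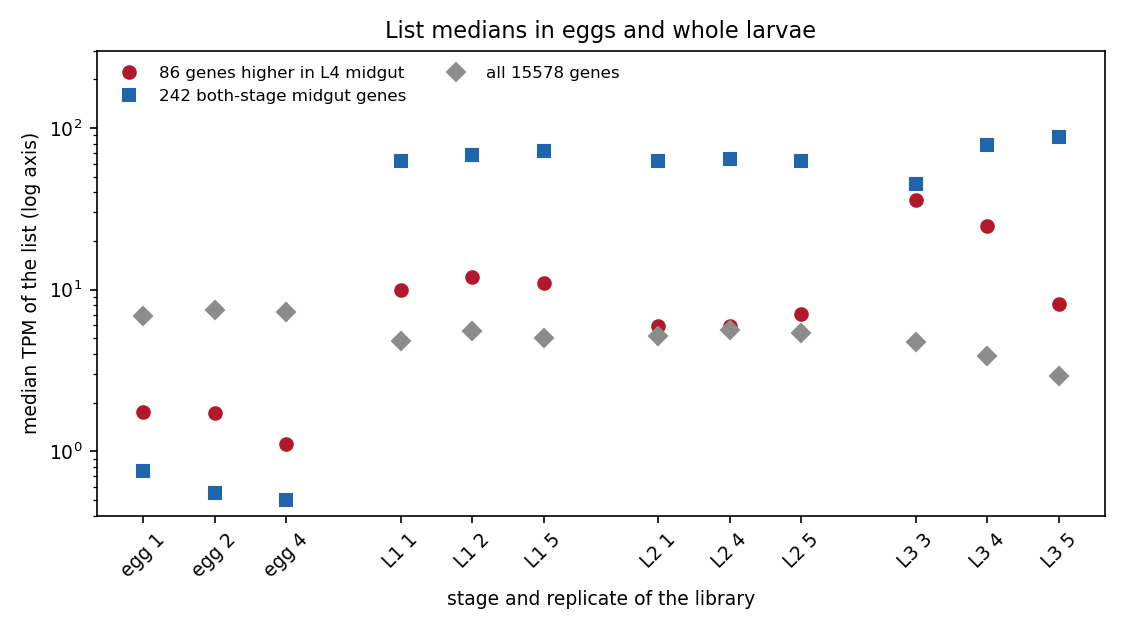
Median TPM (log axis) per library of eggs and whole larvae, for the 86 genes higher in L4 midgut (circles), the 242 both-stage midgut genes (squares) and all 15578 genes (diamonds). In L3 replicate 3 the 86 genes reach 36.1 TPM, and in L3 replicate 5 they lie at 8.12 TPM while the both-stage genes lie at 88.4 TPM.

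The test of L2 against L1 larvae, in 1 fit over the 3 instars, had 83 of the 86 genes. Of these 7 were lower in L2 and 0 higher, beside 5.31% lower and 5.07% higher over the 10763 genes tested. At an unadjusted p under 0.05 limma gave 15 genes in both directions together, and the share over all genes at that level was not counted. Among the 83 genes 60 were lower in L2 by any amount, with a median log2 difference of -0.29, against 0.11 over all genes tested. The number lower went to 19 without L3 replicate 5 and to 11 without L3 replicate 3, and to 3 without any single L1 library or without L2 replicate 1.

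LdNA_31769 had 0.661, 0.498 and 0.896 TPM in L2 larvae, against the L1 values above, a log2 difference of -3.60 ± 0.27 (SE, limma adjusted p = 0.00012). LdNA_8976 was listed at 0 in each L2 library, against 4.93, 17.2 and 7.01 TPM in L1 larvae, and the size of its fitted difference depends on the pseudocount. LdNA_2826 had 4.35, 3.35 and 15.2 TPM in L2 larvae, against 40.4, 46.4 and 33.8 TPM in L1 larvae (limma adjusted p = 0.0089). In L3 larvae LdNA_2826 was lower still, at 0.790, 0.384 and 0.412 TPM. This gene went down through the instars sampled whole, although it had 721, 14.5 and 250.2 TPM in L4 midgut.

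More of the genes passed the test between L2 and L3. Of the 83 genes tested, 36 were higher in L3 than in L2 and 3 lower. Over all genes tested 9.37% were higher and 38.6% lower, with a median log2 difference of -0.43, against 1.10 over the 83. The filter let in 9 genes through 1 instar only, and 8 of those were called. With no filter 28 of 86 were higher and 3 lower. Without L3 replicate 5 the number higher was 56, and without L3 replicate 4 it was 23, while for 54 of the 86 genes the lowest L3 library lay under the highest L2 library. After median-of-ratios scaling 52 were higher and 1 lower. The shares over all genes under these alternatives are not given here, so the changes cannot be read as particular to the set.

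By size of difference LdNA_25084 came before the genes that follow, but its L3 and L2 libraries overlapped (limma adjusted p = 0.047). LdNA_10554 (chromosome 5, 25326080-25328823, minus strand, 1 exon) had 418, 152 and 6.11 TPM in L3 replicates 3, 4 and 5, against 0.0990, 0.0522 and 0.0261 TPM in L2 larvae. The log2 difference was 6.18 ± 1.23 (SE, limma adjusted p = 0.0036). Its L4 midgut values were 776, 1075 and 465 TPM, so L3 replicate 3 came close to them in whole bodies. LdNA_28787 had 806, 736 and 28.3 TPM in L3 larvae, against 5.28, 5.31 and 2.92 TPM in L2 larvae (limma adjusted p = 0.0047). LdNA_25085 had 602, 67.4 and 0.320 TPM in L3 larvae and at most 0.178 TPM in L2 larvae. It barely passed the threshold (limma adjusted p = 0.042) and lost it when any 1 of 8 libraries was left out, with adjusted p of 0.063 to 0.12. LdNA_25084, LdNA_10554 and LdNA_25085 passed the filter through their L3 values alone, the group where they are high.

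Lower in L3 than in L2 were LdNA_2826, LdNA_25168 and LdNA_11263. LdNA_25168 (chromosome 13, 6149608-6162928) had 312, 556 and 937 TPM in L3 larvae, against 1898, 1534 and 1953 TPM in L2 larvae (limma adjusted p = 0.0036). In L1 larvae it had 1854, 1798 and 2026 TPM, above its 1022, 1329.6 and 1662 TPM in L4 midgut. It was the only gene of the 86 with an L1 mean above its L4 midgut mean, and it had 6.88 to 17.6 TPM in adult midgut. The calls of LdNA_25168 and LdNA_11263 were lost after median-of-ratios scaling (limma adjusted p = 0.065 and 0.25).

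Among the 83 genes, 25 were higher and 10 lower in L3 than in L1 larvae, beside 10.0% higher and 35.5% lower over all genes tested, whose median log2 difference was -0.33. Of the 9 genes let in through 1 instar only, 7 were called. After median-of-ratios scaling the numbers were 42 higher and 5 lower, and without L3 replicate 5 they were 49 and 10. Without any single L1 library 5 or 6 were lower. LdNA_25084 had the largest difference of those higher, but its L3 and L1 libraries overlapped (limma adjusted p = 0.049). Among those without overlap LdNA_28787, LdNA_10554 and LdNA_25412 had the largest. LdNA_25084 and LdNA_10554 had passed the filter through their L3 values alone. LdNA_25412 had 81.7, 51.2 and 28.9 TPM in L3 larvae, against 1.94, 1.32 and 1.79 TPM in L1 larvae, a log2 difference of 4.24 ± 0.35 (SE, limma adjusted p = 4.9e-05). All its L3 libraries, replicate 5 included, were above all of L1 and L2.

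A pattern seen after the values were known was that 9 of the 86 genes had under 5 TPM in L1 and in L2 and at least 20 TPM in L3, out of 114 such genes in the table. They were LdNA_25084, LdNA_25085, LdNA_28785, LdNA_28787, LdNA_10554, LdNA_22694, LdNA_25412, LdNA_31409 and LdNA_23429. In 8 of them replicate 3 was the highest L3 library and replicate 5 the lowest. LdNA_25084 had 4944, 951 and 0.0782 TPM in L3 replicates 3, 4 and 5, and at most 0.275 TPM in any L1 or L2 library. Its replicate 5 was thus at the level of the younger instars while replicate 3 was far above them. LdNA_23429 ran the other way, with 2.46, 11.8 and 52.0 TPM in the same replicates.

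**Figure D4:**
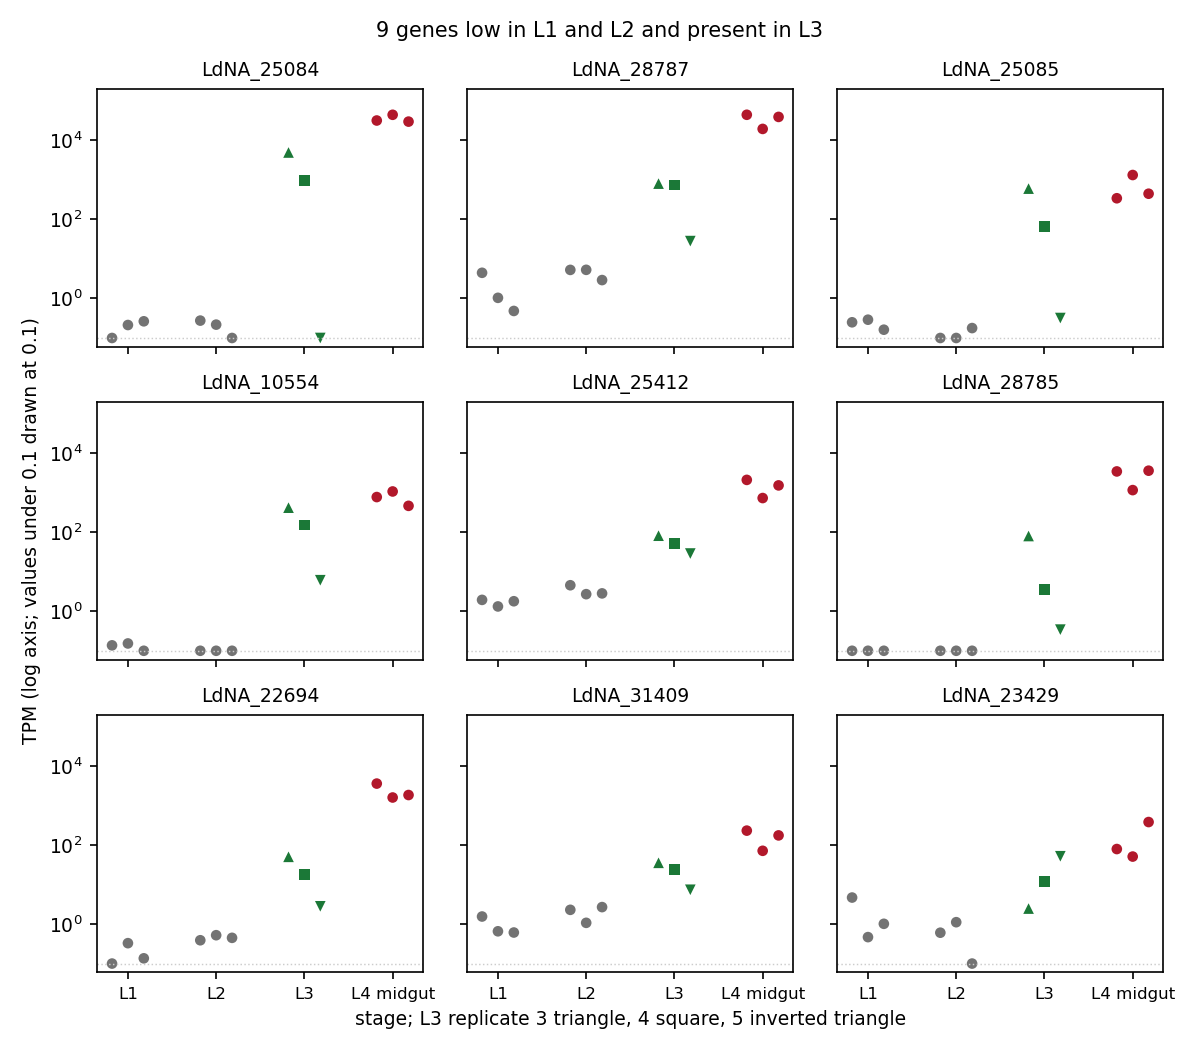
TPM (log axis) in each L1, L2 and L3 whole-body library and each L4 midgut library for the 9 genes with under 5 TPM in L1 and L2 and at least 20 TPM in L3, 1 panel per gene and 1 point per library. In 8 panels L3 replicate 3 is highest and replicate 5 lowest, as for LdNA_25084 with 4944, 951 and 0.0782 TPM in replicates 3, 4 and 5, and LdNA_23429 runs the other way.

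At the low end, LdNA_21522 and LdNA_13358 were under 1 TPM in the means of all 3 instars. LdNA_21522 was listed at 0 in every L1 and L2 library and reached 1.20 TPM in L3 replicate 3. LdNA_24795 was the next lowest, with a mean of 0.875 TPM over the instars and 39.3, 91.6 and 62.4 TPM in L4 midgut. The highest over the instars were LdNA_31770, LdNA_25168 and LdNA_25086, with means of 2038, 1430 and 1352 TPM. The same set thus held genes near 0 and genes above 1000 TPM in whole young larvae.

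Adult females and males were compared in midgut, where the selection had used only the mean of both. Of the 77 genes that passed the filter, 0 were higher and 0 lower in females by limma with Benjamini-Hochberg adjustment, beside 0.165% higher and 0.671% lower over 8499 genes. At an unadjusted p under 0.05 there were 15 genes, and the share over all genes at that level was not counted. By any amount 63 genes were lower in females, with a median log2 difference of -0.34, against -0.30 over all genes tested. LdNA_28785, named here after its values were seen, had 1.95, 1.45 and 1.21 TPM in female midgut, against 666, 30.6 and 31.0 TPM in male midgut (limma adjusted p = 0.11). Its neighbour LdNA_28787 had 53.2, 46.1 and 34.6 TPM in female midgut, against 2751, 198 and 296 TPM in male midgut (limma adjusted p = 0.15). The sexes did not overlap for either gene, but neither passed the threshold. Male midgut replicate 2 had the highest median of the adult midgut libraries, 24.8 TPM against 10.8 to 17.4 TPM, and was the highest of them for 43 of the 86 genes. Over all genes its median was also the highest, 2.13 TPM against 1.08 to 1.69 TPM. How often it was the highest over all genes was not counted. Without that library 2 genes were lower in females, and 1 was lower without female midgut replicate 2.

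In hindgut, the comparison of L4 with adult had 64 of the 86 genes after the filter. Of these 5 were higher in L4 and 3 lower, beside 3.04% higher and 4.66% lower over 10371 genes. The shares among the 64 genes were 7.81% and 4.69%. The filter let in 13 of the 64 through 1 group only, and 1 of those was called, LdNA_24176, let in by its L4 values. LdNA_10554 had 55.6, 147 and 183 TPM in L4 hindgut, against 0.0356 to 3.91 TPM in adult hindgut, a log2 difference of 6.16 ± 0.54 (SE, limma adjusted p = 0.0012). LdNA_5206 had 66.7, 26.3 and 17.2 TPM in L4 hindgut, against 0.524 to 2.45 TPM in adult hindgut (limma adjusted p = 0.0036), though a gene on the opposite strand overlaps it. LdNA_24176 had 6.09, 27.8 and 22.1 TPM in L4 hindgut, against 0 to 0.472 TPM in adult hindgut (limma adjusted p = 0.0048, or 0.12 with the removed female hindgut library added). In each of the 3 genes the other L4 hindgut libraries lay above adult hindgut as well as replicate 4.

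The 3 genes lower in L4 hindgut were LdNA_11263, LdNA_8016 and LdNA_23106. LdNA_8016 had 17.9, 26.1 and 29.0 TPM in L4 hindgut, against 49.4 to 105 TPM in adult hindgut (limma adjusted p = 0.018). LdNA_11263 had 0.355, 5.98 and 0.104 TPM, against 8.53 to 17.9 TPM in adult hindgut (limma adjusted p = 0.041). LdNA_23106 had 0.795, 0.717 and 1.05 TPM in L4 hindgut, against 2.16 to 6.61 TPM in adult hindgut (limma adjusted p = 0.040). These calls were fragile. The number higher was 3 without female hindgut replicate 1 or 4 or L4 hindgut replicate 4 or 5. The number lower was 0 without female hindgut replicate 1 or without L4 hindgut replicate 5, and 1 without L4 hindgut replicate 1 or 4 or male hindgut replicate 4.

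Several of the most abundant genes were high in L4 hindgut through replicate 4 alone. LdNA_31770, LdNA_25084 and LdNA_31197 had the highest L4 hindgut means of the set, 571, 412 and 217 TPM. LdNA_31770 had 1710.4 TPM in replicate 4 and 0.923 and 0.479 TPM in replicates 1 and 5. LdNA_25084 had 1235 TPM in replicate 4, against 0.677 and 0.703 TPM. LdNA_31197 was high in all 3. Over the 86 genes replicate 4 was above all other hindgut libraries of L4 for 70 (81.4%). The same held for 91.7% of the both-stage midgut genes and 59.0% of the genes highest in adult midgut. In replicate 4 the values of the 86 genes were a median of 2.77% of the L4 midgut level, against 1.72% for the both-stage midgut genes. Without this library 89 genes met the selection rule, the 86 among them, and 3 were higher and 1 lower in L4 hindgut.

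Fat body held few of the genes, 26 of 86 after the filter. Of these 3 were higher in L4 and 1 lower, beside 5.47% higher and 4.14% lower over 8922 genes. The filter let in 3 of the 26 genes through 1 group only, and 2 of those were called, LdNA_10554 and LdNA_30864, both let in by their L4 values. LdNA_10554 had 111 and 19.2 TPM in white fat body and 53.7 TPM in yellow fat body of L4, against 0 to 0.470 TPM in adult fat body. Its log2 difference was 5.50 ± 0.47 (SE, limma adjusted p = 0.00038). LdNA_25412 had 115, 96.8 and 39.9 TPM in L4 fat body, against 0 to 12.4 TPM in adult fat body (limma adjusted p = 0.016), and LdNA_30864 had 5.51, 8.20 and 3.39 TPM in L4 and was listed at 0 in each adult library.

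LdNA_18059 went the other way, with 0.512, 1.16 and 0.989 TPM in L4 fat body, against 5.41 to 44.9 TPM in adult fat body (limma adjusted p = 0.021). This call was lost without female fat body replicate 3 or either white fat body library, with adjusted p of 0.055 to 0.086, so that 0 genes were then lower. Without male fat body replicate 7 the counts were 6 higher and 3 lower, and without yellow fat body replicate 2 they were 5 and 1. The removed yellow fat body library had 16.1 TPM of LdNA_10554.

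The difference between the stage effects of hindgut and fat body was tested directly over 53 of the genes. It was larger in hindgut for 2 and smaller for 1, beside 1.48% and 3.30% of 10262 genes. LdNA_5206 differed by 3.68 ± 0.47 (log2, SE, limma adjusted p = 0.00065), with at most 0.131 TPM in each of the 9 fat body libraries in the fit. LdNA_24176 differed by 2.27 ± 0.57 (limma adjusted p = 0.036), a call that was lost under 15 of the alternatives, with adjusted p of up to 0.46. LdNA_11263 differed by -3.07 ± 0.66 (limma adjusted p = 0.016). It was also near 0 in fat body, with 0.216 to 0.441 TPM in L4 and at most 0.0979 TPM in adults, so this value mostly repeats its hindgut difference. For LdNA_10554 the difference between the tissues was 0.67 ± 0.75 (SE, limma adjusted p = 0.74). The number larger in hindgut was 1 when any of 11 single libraries was left out, L4 hindgut replicates 4 and 5 among them. The number smaller was 3 without male fat body replicate 7, and 2 without female fat body replicate 6, female hindgut replicate 4 or male hindgut replicate 5.

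The 86 genes had a median of 4 exons, as did all genes, and a median length of 1461 bp, against 1209 bp. Single-exon genes made up 3.49% of the set and 17.0% of all genes. The share was similar in the other midgut lists, 4.55% of the both-stage midgut genes and 3.85% of the genes highest in adult midgut. The span of another gene overlapped that of 9 of the 86, on the opposite strand in 7, namely LdNA_5206, LdNA_9064, LdNA_9579, LdNA_13358, LdNA_19621, LdNA_20307 and LdNA_22713. Without strand in the libraries, reads from any shared exon stretch cannot be told apart, and overlap of exons was not checked. A gene of any of the 3 midgut lists lay within 3 places of 32 of the 86 genes (37.2%) and of 11.6% of all genes.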

How the data were processed

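Poly(A) RNA of 61 libraries was sequenced from non-directional libraries. The authors used Trimmomatic for trimming, STAR for alignment and featureCounts (Subread 2.0.5) for the number of read pairs at each gene, and deposited TPM values for genes above 1 TPM in at least 2 samples. Coordinates are as deposited, on a genome build whose name was not given in the sources used here. Tissue fields in 59 labels named another sample type, so groups were taken from the titles. The members and lists were chosen with earlier results of these data known.

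Libraries of a comparison were fitted with limma 3.58.1 (R 4.3.3, eBayes with trend) on log2(TPM + 1), over genes with a mean of at least 1 TPM in the fit. P-values were adjusted by Benjamini-Hochberg over all genes of the fit, with a threshold of 0.05. Fold changes on this scale understate those of low genes. Depth was recovered from the steps of TPM times gene length, which were whole within 0.01 for 100% of values. L4 midgut libraries had 13143253 to 15201190 read pairs, adult midgut libraries 13759544 to 16085250, and eggs and whole larvae 13428349 to 16772098.

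Named were the 12 genes with the highest L4 midgut mean, the 4 with the largest ratio to the next group plus 1 TPM, the 3 nearest each side of both thresholds, the 3 largest called differences without overlap per comparison and direction, the 3 lowest and 3 highest over L1 to L3, the largest run of neighbours, and the 3 highest in eggs, L4 hindgut and adult midgut. Others named in the report were chosen after their values were seen. Alternatives were a pseudocount of 0.1, other filters, median-of-ratios scaling, eBayes without trend, a replicate block, other libraries in the fit and leaving out each library. The fits were tested on simulated data. Python 3.11.15, pandas 2.3.3, numpy 2.4.6 and matplotlib 3.10.9 were used for the rest.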

Additional observations from a re-analysis of the deposited data

Results flagged for a closer look

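In adult midgut, single libraries lay far from the other 5 for 8 of the genes named in the report. Male replicate 2 was the distant library for 6 of them. It had 3.75 TPM of LdNA_25084, 2751 TPM of LdNA_28787, 897 TPM of LdNA_31197 and 666 TPM of LdNA_28785, against at most 0.555, 296, 406 and 31.0 TPM in the other libraries. The same library had 0.519 TPM of LdNA_21522, which was listed at 0 in the others, and 17.2 TPM of LdNA_25048, against 2.11 to 2.88 TPM. Male replicate 4 was distant for LdNA_31770 at 7315 TPM, against 3713 to 4754 TPM, and for LdNA_25086 at 4199 TPM, against 1485 to 2361 TPM.

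LdNA_10554 had 3.91 TPM in female hindgut replicate 4, against 0.0356 to 0.237 TPM in the other adult hindgut libraries. In male fat body replicate 7 it had 0.470 TPM, against at most 0.0898 TPM in the other adult fat body libraries. LdNA_18059 had 44.9 TPM in that same library, against 5.41 to 10.1 TPM. Of the 29 groups of values examined, 11 had such a distant library. The limit used is passed by about 1 in 20 groups of normally distributed values. TPM was used here without a log, and a single value above zeros always passes, as for LdNA_21522. The rate of 1 in 20 is therefore no measure of chance for these groups. The groups share libraries and so are not independent.

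For 3 genes the L4 against adult difference in hindgut differed from that in fat body by its own test, by 3.68 for LdNA_5206, 2.27 for LdNA_24176 and -3.07 for LdNA_11263 on the log2 scale. In the fat body libraries of the fit LdNA_5206 had at most 0.131 TPM and LdNA_11263 at most 0.441 TPM.

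Of the 2 libraries that the study set aside, female hindgut replicate 5 had a median of 16.4 TPM over the 86 genes, against 2.24 and 2.27 TPM in the other female hindgut libraries, and a median of 86.5 TPM over the both-stage midgut genes, against 1.67 and 2.25 TPM. Yellow fat body replicate 4 had a median of 0.589 TPM over the 86 genes, against 0.0191 to 0.516 TPM in the other L4 fat body libraries, so it was only slightly above the highest of them. Its larger shift was in the 197 genes high in hemolymph, with a median of 28.9 TPM, against 4.43 to 7.72 TPM, and the 112 genes high in genital ducts had 5.11 TPM, against 0.131 to 2.55 TPM.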

How the results depend on the processing

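The list held 144 genes at 3 times and 32 at 8 times in place of 4, 52 after median-of-ratios scaling, and 85 to 95 with 1 library left out. After that scaling, L1 against eggs had 7 lower, L3 against L2 had 52 higher and 1 lower, L3 against L1 had 42 higher and 5 lower, and L4 against adult fat body had 5 higher and 2 lower. With L2 and L3 larvae in the fit, L1 against eggs had 6 lower. With no filter, L4 against adult hindgut had 1 lower, fat body 5 higher, and the difference between hindgut and fat body 2 smaller, as also with a filter of above 1 TPM in at least 2 libraries and with eBayes without trend. With a pseudocount of 0.1 that difference had 1 larger. Adding the removed female hindgut library gave 3 higher in L4 hindgut, and adding the removed yellow fat body library gave 0 lower in L4 fat body.

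With 1 library left out, the counts higher and lower were 43 to 46 and 8 to 12 for L1 against eggs, 0 to 2 and 3 to 19 for L2 against L1, 23 to 56 and 3 to 4 for L3 against L2, and 17 to 49 and 5 to 10 for L3 against L1. They were 0 to 0 and 0 to 2 for females against males, 3 to 6 and 0 to 3 for hindgut, 2 to 6 and 0 to 3 for fat body, and 1 to 3 and 1 to 3 for the difference between the tissues. For the alternatives, here and above, no share over all genes is given. Changes in the set are thus not told apart from changes across all genes.

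Replicate numbers were shared across groups, but same-numbered libraries did not deviate together (correlations of -0.17 to 0.17), so they were not taken as pairs. With the replicate block, L2 against L1 had 1 higher and 4 lower, L3 against L2 had 25 higher and 5 lower, L3 against L1 had 9 higher, females against males had 1 lower, L4 hindgut had 1 lower, L4 fat body had 0 higher and 0 lower, and the difference between the tissues had 0 smaller. Among single genes named, 473 results kept their side of the threshold under an alternative, 68 lost it and 0 reversed. The cause of these changes was not tested. Depth limits genes near 0, where 1 read pair was worth up to 0.122 TPM.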
